A study of Rattus norvegicus with 12 samples.

Results

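The aryl hydrocarbon receptor (AhR) pathway was followed through 6 genes: the receptor Ahr, its partner Arnt, the target Tiparp and the cytochrome P450 genes Cyp1a1, Cyp1a2 and Cyp1b1. They were taken by name from a table of 40154 rat genes measured by RNA sequencing of liver, and all 6 were among the 15916 genes that passed the filter on low counts. The study asks how S-allylmercaptocysteine (SAMC), an organosulfur compound of aged garlic, bears on drug metabolising enzymes and inflammation in fatty liver. All libraries came from liver of Sprague Dawley rats, in 4 groups of 3. HFD+SAMC livers had a high fat diet together with SAMC, HFD livers that diet without SAMC, Control+SAMC livers a normal diet together with SAMC, and Control livers a normal diet without it. The labels name no transgene, sex, age, dose or length of treatment. They do not state that the 3 libraries of a group came from separate animals, so p-values measure only how these samples vary, and that variation may be technical.

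Ahr encodes a receptor of the basic helix-loop-helix PAS family that waits in the cytosol bound to Hsp90 chaperones. On binding a ligand, such as dioxin, a planar aromatic pollutant or a tryptophan metabolite, it enters the nucleus, pairs with the Arnt protein and binds DNA elements with the core GCGTG. In liver it is best known for switching on the Cyp1 enzymes, which oxidise planar aromatic compounds, together with conjugating enzymes and the proteins Tiparp and Ahrr, which damp the receptor in turn. Cyp1a2 differs from the other Cyp1 genes in that hepatocytes express it without an added inducer, mainly those around the central vein.

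Promoter windows are shown for 3 genes on which the SAMC comparisons turn: the abundant Cyp1a2, the scarce Cyp1b1 and Ugt1a6, a conjugating enzyme gene of the AhR battery. Each runs 5′ to 3′ on the strand of the gene, from 250 bases before the transcription start to 50 after it, and comes from RefSeq (assembly GRCr8). Capitals mark GCGTG, or CACGC where the match lies on the opposite strand. The Cyp1a2 window is chr8:66978100-66978399 on the minus strand, that of Cyp1b1 is chr6:21094315-21094614 on the plus strand, and that of Ugt1a6 is chr9:96194768-96195067 on the plus strand. The deposited table uses other coordinates, and for Cyp1b1 it lists the opposite strand.
Cyp1a2: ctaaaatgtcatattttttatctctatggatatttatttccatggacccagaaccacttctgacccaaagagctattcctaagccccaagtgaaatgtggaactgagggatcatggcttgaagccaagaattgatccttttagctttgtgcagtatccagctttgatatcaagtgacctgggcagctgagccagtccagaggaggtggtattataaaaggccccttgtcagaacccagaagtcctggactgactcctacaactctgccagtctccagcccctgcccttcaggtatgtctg
Cyp1b1: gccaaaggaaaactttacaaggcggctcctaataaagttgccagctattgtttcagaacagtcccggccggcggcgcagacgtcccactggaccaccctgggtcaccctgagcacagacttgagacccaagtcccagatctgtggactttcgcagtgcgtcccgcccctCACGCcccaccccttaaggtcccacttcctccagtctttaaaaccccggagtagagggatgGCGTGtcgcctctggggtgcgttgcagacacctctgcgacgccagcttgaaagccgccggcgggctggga
Ugt1a6: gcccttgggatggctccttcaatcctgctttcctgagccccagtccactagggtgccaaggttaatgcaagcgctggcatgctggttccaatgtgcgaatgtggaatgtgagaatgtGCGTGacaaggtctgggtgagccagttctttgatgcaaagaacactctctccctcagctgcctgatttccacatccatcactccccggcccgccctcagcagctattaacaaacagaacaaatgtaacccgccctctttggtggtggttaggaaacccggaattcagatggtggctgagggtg
Cyp1b1 held 1 match 20 bases before its start and another on the opposite strand 81 bases before it. Ugt1a6 held 1 match 133 bases before its start, and Cyp1a2 held none. Of the 6 genes, 5 had a window and 3 of these held GCGTG on either strand: Cyp1b1, Arnt (42 bases before the start) and Tiparp (136 bases before it, on the opposite strand). The Ahr window held none, and Cyp1a1 had no entry. Across all 33469 rat windows, 29.7% held GCGTG, and 4.9% held the longer TNGCGTG, which among the 5 windows only that of Cyp1b1 held. A match is a description of the letters, not a site shown to be bound, and a window without one says nothing of elements elsewhere.

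Total counts ranged from 45680738 to 61937544 per library. Liver markers were high throughout, with Hnf4a at 499.6 to 1236 CPM (counts scaled to a library of 1e+06) and albumin taking 7.32% to 21.8% of counts. Hnf4a was nevertheless lower without overlap in HFD+SAMC, at 499.6, 649.2 and 529.8 CPM. Every library of the other groups held 874.1 CPM or more. Whether this difference has a part in the Cyp1 values was not tested. HFD+SAMC replicate 3 stood apart through skeletal muscle transcripts (439.7 CPM of the muscle actin Acta1, which elsewhere stayed at 0.135 CPM or below). The fibrinogen transcript Fga was low, between 3378 and 3822 CPM, in HFD replicates 2 and 3, Control+SAMC replicate 1 and Control replicate 2, whereas the remaining 8 libraries held 8221 to 18523 CPM. For 1 gene the authors' RPKM (reads per kilobase of gene, scaled to a library of 1e+06) implied a length of 3377 bp in Control and HFD+SAMC libraries and 4432 bp in Control+SAMC and HFD libraries. Of the comparisons between 2 groups, all but HFD+SAMC against Control cross this division, and the interaction of diet and SAMC follows it exactly, so that interaction and this division cannot be told apart. CPM values below are scaled by TMM (trimmed mean of M-values).

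Livers given SAMC held more Cyp1 transcripts than those not given it, on either diet by group means. Cyp1a2, the most abundant of the 6, averaged 1169 ± 43.0 CPM in HFD+SAMC livers and 661 ± 178 CPM in HFD livers (SD, n = 3 each). On the normal diet it averaged 1176 ± 329 CPM in Control+SAMC livers and 852 ± 108 CPM in Control livers (SD, n = 3 each). Cyp1a1 and Cyp1b1 were scarce but also higher on average in both SAMC groups, while the libraries of Ahr overlapped between all groups and those of Arnt between most. Tiparp was lower on the high fat diet by TMM-scaled counts, a difference that depended on the scaling. None of these differences passed the test over all genes.

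Over 8 contrasts, 0 of the 48 combinations of gene and contrast passed 0.05 by the quasi-likelihood test of edgeR, with Benjamini-Hochberg adjustment over 15916 genes. The background was low as well: 0.145% of all genes passed in HFD against Control, 0.0503% in HFD+SAMC against HFD, 0.119% in Control+SAMC against Control, 0.0628% in HFD+SAMC against Control+SAMC and 0.176% in HFD+SAMC against Control. It was 0.421% for the diet averaged over SAMC, 0.22% for SAMC averaged over diet and 0.145% for the interaction. At an unadjusted p under 0.05, 9 of the 48 combinations were counted, 6 of them higher and 3 lower. These were 1 gene each in HFD against Control (10.7% of all genes), Control+SAMC against Control (9.78%), the diet averaged over SAMC (13.6%) and HFD+SAMC against HFD (10.6%), 2 in HFD+SAMC against Control (12.6%) and 3 for SAMC averaged over diet (12.4%), with 0 for the interaction (7.41%). DESeq2 called 3 of the 48: Cyp1a2 in HFD+SAMC against HFD, where it called 1.6% of all genes, Cyp1a2 for SAMC averaged over diet, where it called 2.75%, and Tiparp for the diet averaged over SAMC, where it called 3.39%.

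Libraries of both groups did not overlap for 2 of the 6 genes in HFD+SAMC against HFD, both higher (Cyp1a2 and Cyp1b1), where 9.4% of all genes tested were higher without overlap. In Control+SAMC against Control 1 gene, Cyp1a2, was higher without overlap (7.03% of all genes). Against Control, HFD+SAMC had 3 genes higher, all Cyp1 genes (10.2% of all genes), and Tiparp lower (9.49%). In HFD against Control Tiparp was lower (6.44%), and in HFD+SAMC against Control+SAMC Arnt and Tiparp were lower (8.54%). For SAMC averaged over diet, the contrast that weighs both diets equally, 3 of the 6 genes had an unadjusted p under 0.05, all higher (6.31% of all genes). The median log2 fold change of the 6 was 0.38 in that contrast, against -0.005 over all genes. All 6 estimates lay above 0, as did 7823 of all 15916 genes. Those of Ahr (0.12 ± 0.33), Arnt (0.02 ± 0.10) and Tiparp (0.05 ± 0.094, SE) were the lowest, so the higher estimates were those of the Cyp1 genes. The 95% interval of Ahr, -0.60 to 0.85, holds the Cyp1a2 estimate of 0.64, so Ahr was not shown to differ from it.

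**Figure D1:**
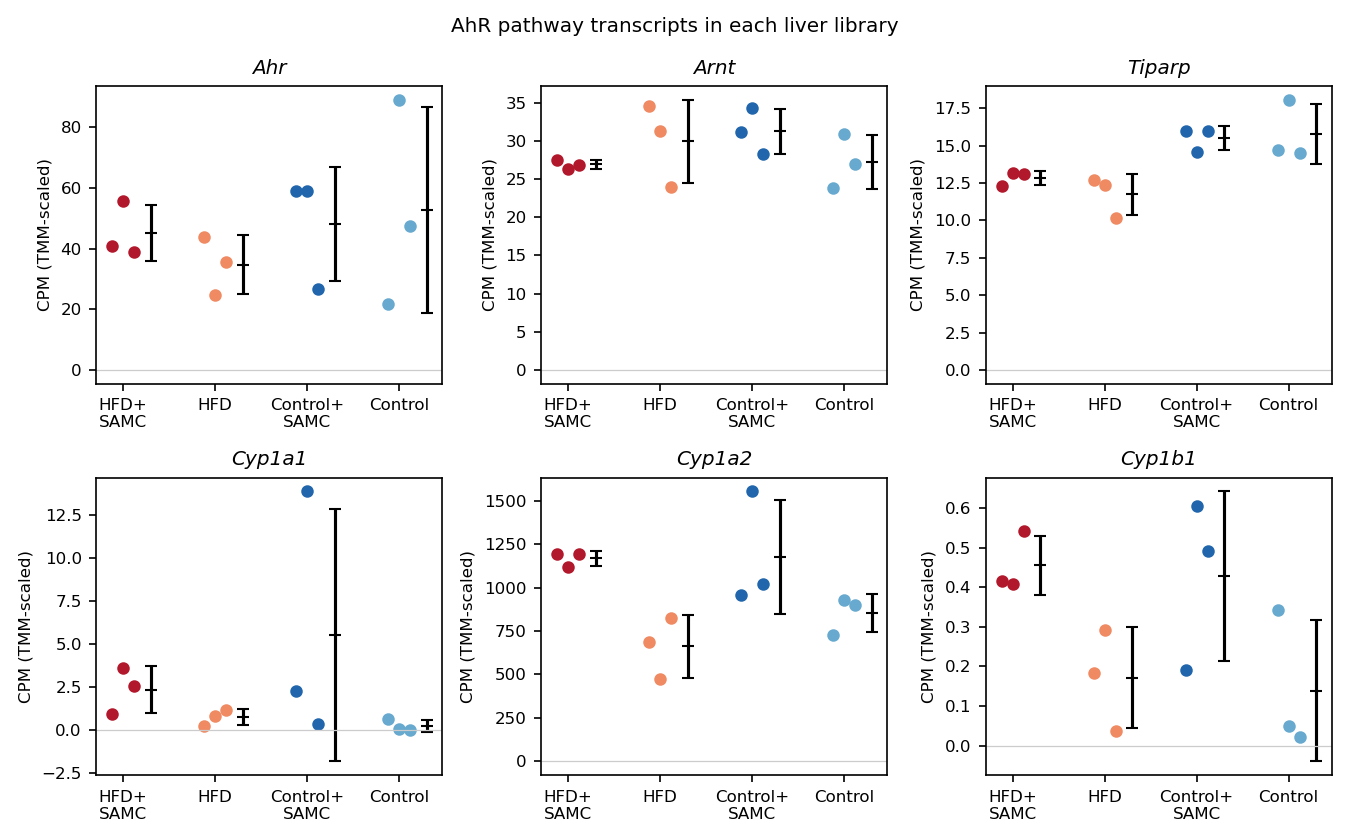
TMM-scaled CPM (y axes, linear, each with its own range) of the 6 genes in every library, by group. Coloured points are libraries in replicate order, and black bars are mean and SD of 3 libraries; Cyp1a2 in HFD+SAMC lies above every HFD library, and 1 Control+SAMC library carries most of the Cyp1a1 in its group.

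Ahr, the receptor itself (chromosome 6, 54963990 to 55001806, minus strand in the deposited table, which names no genome build), was measured at 40.7, 55.7 and 38.9 CPM in HFD+SAMC livers and at 44.0, 24.8 and 35.4 CPM in HFD livers. It was at 59.0, 58.9 and 26.5 CPM in Control+SAMC livers and at 21.9, 89.1 and 47.3 CPM in Control livers. Both the lowest and the highest of the 12 values were Control libraries, and every pair of groups overlapped. By mean the order from low to high was HFD (34.7 ± 9.62 CPM), HFD+SAMC (45.1 ± 9.23), Control+SAMC (48.1 ± 18.7) and Control (52.7 ± 33.9), and all neighbours in it overlapped (SD, n = 3 each). The log2 fold change of HFD against Control was -0.60 ± 0.46 (SE; edgeR adjusted p = 0.695), and it was 0.004 without Control replicate 2 and -0.98 without Control replicate 1. For HFD+SAMC against HFD it was 0.38 ± 0.46, with a 95% interval of -0.65 to 1.41, and for Control+SAMC against Control it was -0.13 ± 0.46, with an interval of -1.16 to 0.90. These intervals do not show that Ahr levels were alike.

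Arnt, the partner that Ahr needs to bind DNA, lies on chromosome 2 (196594178 to 196651486, plus strand). By TMM-scaled CPM, though not by RPKM, it was the steadiest of the 6 genes across libraries. It was at 27.5, 26.3 and 26.9 CPM in HFD+SAMC livers, 34.6, 31.4 and 23.9 in HFD livers, 31.2, 34.2 and 28.3 in Control+SAMC livers and 23.9, 30.8 and 26.9 in Control livers. Its coefficient of variation over all 12 libraries was 12.5%, against 15.1% for Tiparp, 29.3% for Cyp1a2 and 41.6% for Ahr. All 3 HFD+SAMC libraries lay below all 3 Control+SAMC libraries, with a log2 fold change of -0.22 ± 0.15 (edgeR adjusted p = 0.653). In the other comparisons of 2 groups its CPM values overlapped. By mean the order from low to high was HFD+SAMC (26.9 ± 0.617 CPM), Control (27.2 ± 3.49), HFD (29.9 ± 5.47) and Control+SAMC (31.3 ± 2.96), with all neighbours overlapping (SD, n = 3 each). On the authors' RPKM, which are scaled by library totals alone, Arnt was higher without overlap in HFD than in Control, at 11.5, 11.7 and 7.88 against 7.35, 7.80 and 7.72. It was also higher without overlap than in Control in HFD+SAMC, at 9.48, 9.09 and 8.93, and in Control+SAMC, at 10.3, 9.92 and 8.74. The HFD+SAMC and Control+SAMC livers overlapped on that scale. With library totals alone the median log2 fold change of all genes against Control was also above 0. It was 0.29 in HFD, 0.27 in HFD+SAMC and 0.12 in Control+SAMC. How many of all genes separate on RPKM was not counted.

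Levels can be compared between genes on the RPKM scale, since it is per length. The ratio of Ahr to Arnt RPKM averaged 0.941 ± 0.212 in HFD+SAMC, 0.661 ± 0.199 in HFD, 0.848 ± 0.285 in Control+SAMC and 1.04 ± 0.554 in Control livers (SD, n = 3 each). Transcripts of the receptor and its partner were thus of the same order, from 0.442 in HFD replicate 3 to 1.62 in Control replicate 2. Both extremes are among the 4 libraries with low Fga. Whether that state has a part in the Ahr values was not tested.

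Tiparp, a poly(ADP-ribose) polymerase family member that Ahr induces and that represses Ahr in turn (chromosome 2, 157316293 to 157342979, plus strand), was at 12.3, 13.2 and 13.1 CPM in HFD+SAMC livers and at 12.7, 12.4 and 10.1 CPM in HFD livers. It was at 16.0, 14.6 and 16.0 CPM in Control+SAMC livers and at 14.7, 18.1 and 14.5 CPM in Control livers. On this scale all 6 high fat libraries lay below all 6 normal diet libraries. How many of all genes separate by diet in this way was not counted. The log2 fold change was -0.43 ± 0.13 in HFD against Control (unadjusted p = 0.00768, edgeR adjusted p = 0.276) and -0.27 ± 0.13 in HFD+SAMC against Control+SAMC (adjusted p = 0.503). For the diet averaged over SAMC it was -0.35 ± 0.094 (adjusted p = 0.141 by edgeR and 0.0311 by DESeq2). With libraries scaled by totals alone it was -0.13 in this contrast and -0.12 in HFD against Control. That scaling moved the median of all genes by 0.22 and 0.29, so Tiparp lay below the median gene under both scalings.

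On RPKM Tiparp did overlap between diets, at 3.47, 3.79 and 2.74 in HFD against 3.71, 3.75 and 3.41 in Control livers. Between livers with and without SAMC its log2 fold change was 0.13 ± 0.13 in HFD+SAMC against HFD and -0.02 ± 0.13 in Control+SAMC against Control. Both intervals, -0.16 to 0.42 and -0.31 to 0.27, exclude a change of 1 log2 unit either way. By mean CPM the order from low to high was HFD (11.7 ± 1.39), HFD+SAMC (12.9 ± 0.465), Control+SAMC (15.5 ± 0.805) and Control (15.8 ± 2.00), and only HFD+SAMC and Control+SAMC were neighbours without overlap (SD, n = 3 each). A long noncoding RNA, LOC102554278, overlaps Tiparp on the other strand with at most 79 counts in a library. Whether the counting used strand is not stated in the sources at hand.

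Cyp1a1, the enzyme most strongly induced through Ahr in liver and near silent without a ligand (chromosome 8, 62472087 to 62478122, plus strand), was counted 59, 231 and 164 times in HFD+SAMC libraries and 14, 52 and 64 times in HFD libraries. It was counted 108, 643 and 17 times in Control+SAMC libraries and 35, 3 and 0 times in Control libraries. On the CPM scale these are 0.911, 3.62 and 2.54 in HFD+SAMC, 0.258, 0.798 and 1.20 in HFD, 2.28, 13.9 and 0.348 in Control+SAMC, and 0.667, 0.0734 and 0 in Control. Control+SAMC replicate 2 held more than the other 11 libraries each, and Control replicate 3 held none. Control+SAMC and Control overlapped, as did HFD+SAMC and HFD, while all HFD+SAMC libraries lay above all Control libraries.

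The fitted log2 fold change of Cyp1a1 was 4.41 ± 1.46 in Control+SAMC against Control (unadjusted p = 0.0129, edgeR adjusted p = 0.365), with a 95% interval of 1.15 to 7.66. Without Control+SAMC replicate 2 it was 2.35, and without Control replicate 1 it was 7.19. On the high fat diet, HFD+SAMC against HFD, it was 1.65 ± 1.28 (adjusted p = 0.691), and 1.59 without the muscle-bearing HFD+SAMC replicate 3. Diet and SAMC together, HFD+SAMC against Control, gave 3.18 ± 1.41 (adjusted p = 0.392), and 5.95 without Control replicate 1. SAMC averaged over diet gave 3.03 ± 0.96 (adjusted p = 0.249), with 1.99 without Control+SAMC replicate 2 and 4.42 without Control replicate 1. The interaction, -2.76 ± 1.86 (adjusted p = 0.803), does not show that the SAMC difference varied with diet. By mean the order from low to high was Control (0.247 ± 0.366 CPM), HFD (0.751 ± 0.471), HFD+SAMC (2.36 ± 1.36) and Control+SAMC (5.51 ± 7.32), and all neighbours overlapped (SD, n = 3 each).

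Cyp1a2, which oxidises caffeine, arylamines and oestrogens (chromosome 8, 62451360 to 62458244, minus strand), ranked 112 of 15916 genes by CPM. It was at 1194, 1120 and 1195 CPM in HFD+SAMC livers and at 685, 472 and 827 CPM in HFD livers. It was at 955, 1555 and 1019 CPM in Control+SAMC livers and at 729, 931 and 897 CPM in Control livers. Every SAMC library lay above every library without SAMC, on both diets and also across them. How many of all genes separate across the diets in this way was not counted. On the RPKM scale the groups averaged 673 ± 20.5 in HFD+SAMC, 382 ± 81.3 in HFD, 609 ± 132 in Control+SAMC and 404 ± 28.3 in Control (SD, n = 3 each).

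Cyp1a2 was 1.77-fold higher in HFD+SAMC than in HFD livers, a log2 fold change of 0.82 ± 0.23 with a 95% interval of 0.32 to 1.33. The unadjusted p was 0.00403, the adjusted p 0.269 by edgeR and 0.0408 by DESeq2. Leaving out 1 library gave values from 0.63, without HFD replicate 3, to 1.02, without HFD replicate 4. Leaving out HFD+SAMC replicate 3, the library with muscle transcripts, gave 0.81. HFD replicates 2 and 3 had low Fga, and no HFD+SAMC library did. Those replicates held less Cyp1a2 (685 and 472 CPM) than HFD replicate 4 (827 CPM). On the normal diet, low Fga went with the lowest Cyp1a2 of Control+SAMC (replicate 1, 955 CPM) and the highest of Control (replicate 2, 931 CPM). Whether that state has a part in the Cyp1a2 values was not tested. In Control+SAMC against Control the log2 fold change was 0.47 ± 0.23 (adjusted p = 0.546), and 0.20 without Control+SAMC replicate 2. SAMC averaged over diet gave 0.64 ± 0.16 (unadjusted p = 0.00198, adjusted p = 0.14 by edgeR and 0.0102 by DESeq2), or 1.56-fold. The interaction was 0.36 ± 0.33 (adjusted p = 0.865), so a larger SAMC difference on the high fat diet was not shown.

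The high fat diet alone did not separate Cyp1a2: the log2 fold change of HFD against Control was -0.37 ± 0.23 (adjusted p = 0.61), and the libraries overlapped. HFD+SAMC against Control+SAMC gave -0.008 ± 0.23, with an interval of -0.51 to 0.49. Against Control, HFD+SAMC gave 0.46 ± 0.23 (adjusted p = 0.443), and 0.74 with libraries scaled by totals alone. By mean CPM the order from low to high was HFD, Control, HFD+SAMC and Control+SAMC, and the only neighbours without overlap were Control and HFD+SAMC.

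Central vein hepatocytes, the main Cyp1a2 cells, were followed through 10 marker genes, among them Glul and Cyp2e1. Their summed level was 4346 to 5282 CPM in HFD+SAMC and 4015 to 5151 CPM in HFD livers, which overlap. It was 3742 to 5240 CPM in Control+SAMC and 3142 to 4177 CPM in Control livers, which overlap as well, and none of the 10 was at 0 in any library. Most of this sum is Cyp2e1, at 2094 to 4020 CPM. Gene by gene, in HFD+SAMC against HFD 8 of the 10 lay above 0 with a median log2 fold change of 0.36, and 4 had an unadjusted p under 0.05, all higher (5.28% of all genes). In Control+SAMC against Control 4 lay above 0 with a median of -0.02, and 1 had such a p, higher (5.18% of all genes). With SAMC averaged over diet 6 lay above 0 with a median of 0.19, and 3 had such a p, all higher. By edgeR 0 of the 10 passed in these contrasts, and by DESeq2 0 as well. Most of these markers were thus on the same side of 0 as Cyp1a2 on the high fat diet, and their part in its values was not tested. In bulk liver, fewer cells of a type and less RNA per cell cannot be told apart.

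Cyp1b1, which acts on oestrogens and polycyclic hydrocarbons and is known mainly from cells other than hepatocytes (chromosome 6, 2308179 to 2316739, minus strand), was counted 27, 26 and 35 times in HFD+SAMC libraries and 10, 19 and 2 times in HFD libraries. It was counted 9, 28 and 24 times in Control+SAMC libraries and 18, 2 and 1 times in Control libraries. HFD+SAMC lay above HFD and Control in every library, while Control+SAMC and Control overlapped. The log2 fold change was 1.38 ± 0.83 in HFD+SAMC against HFD (edgeR adjusted p = 0.59), with 0.92 if HFD replicate 4 is left out, 2.01 if HFD replicate 3 is and 1.24 if HFD+SAMC replicate 3 is. With a replicate block it was 0.81. It was 1.57 ± 0.86 in Control+SAMC against Control (adjusted p = 0.591), 3.51 without Control replicate 1 and 1.08 without Control replicate 3. SAMC averaged over diet gave 1.48 ± 0.60 (unadjusted p = 0.0299, adjusted p = 0.342), and 2.44 without Control replicate 1. In HFD against Control it was 0.27 ± 0.88, with an interval of -1.65 to 2.20, which holds a fold of 2 either way, and it was 2.22 without Control replicate 1.

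By mean CPM the order of Cyp1b1 from low to high was Control (0.138 ± 0.178), HFD (0.171 ± 0.128), Control+SAMC (0.429 ± 0.214) and HFD+SAMC (0.455 ± 0.0749), and all neighbours overlapped (SD, n = 3 each). The summed level of 12 stellate cell and fibroblast markers, which name cells known to express Cyp1b1, was 214 to 309 CPM in HFD+SAMC and 265 to 392 CPM in HFD livers. It was 238 to 341 CPM in Control+SAMC and 222 to 243 CPM in Control livers. The marker ranges overlapped in both SAMC comparisons, and none of the 12 was at 0 in any library. Their part in the Cyp1b1 values was not tested.

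**Figure D2:**
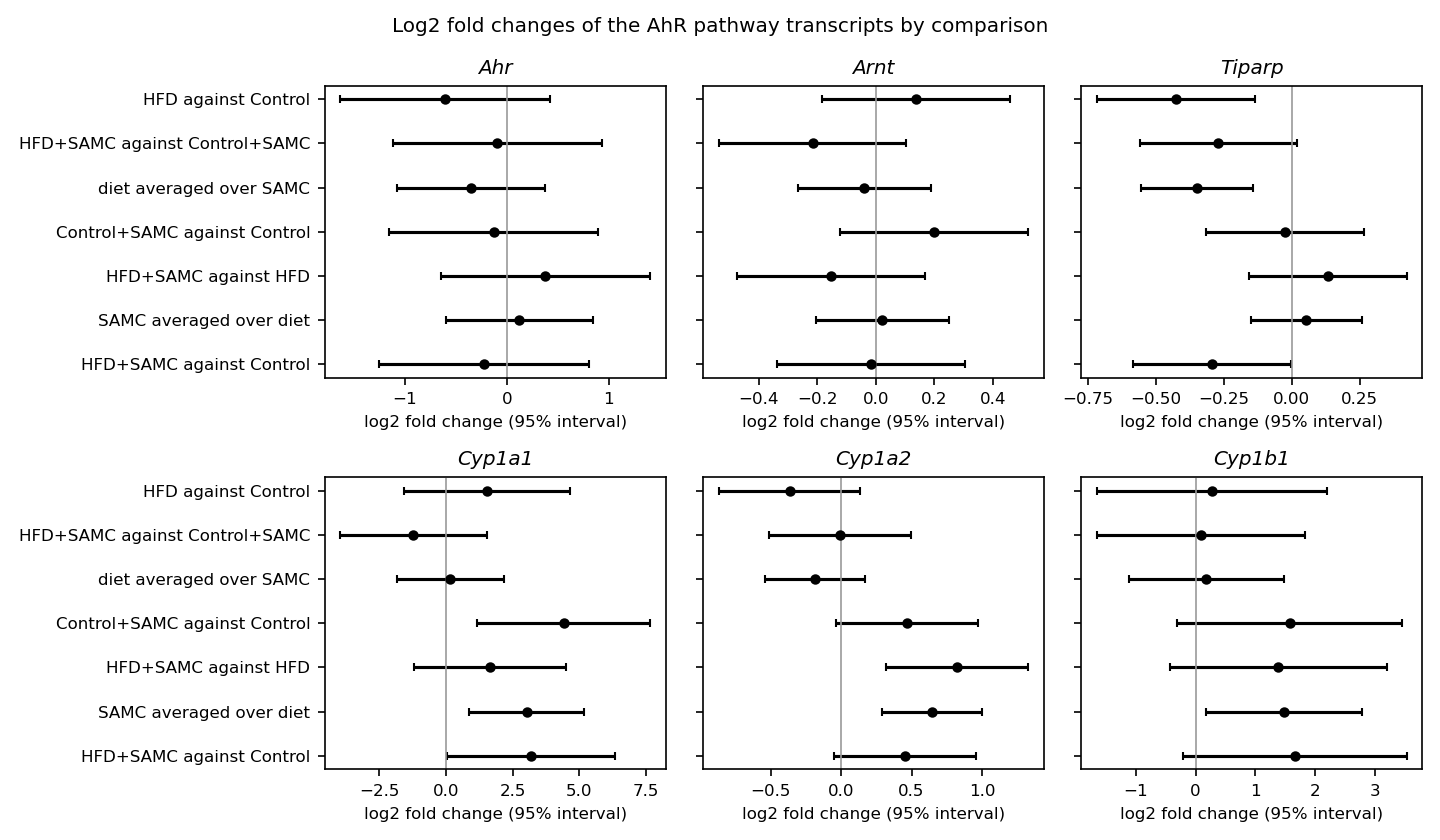
Log2 fold change (x axes, each with its own range) of the 6 genes in 7 contrasts, from edgeR, with 95% intervals as bars; the grey line marks 0. The Cyp1a2 intervals lie above 0 in HFD+SAMC against HFD and for SAMC averaged over diet, and those of Tiparp lie below 0 in HFD against Control, in HFD+SAMC against Control and for the diet averaged over SAMC. The Cyp1a1 and Cyp1b1 intervals are several log2 units wide; those of Cyp1a1 lie above 0 in Control+SAMC against Control, in HFD+SAMC against Control and for SAMC averaged over diet, and that of Cyp1b1 for SAMC averaged over diet.

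The 3 Cyp1 transcripts differed widely in level. Per length, Cyp1a2 made up 99.357% to 99.999% of the summed Cyp1 RPKM in every library. Mean RPKM in HFD+SAMC livers was 673 for Cyp1a2, 0.962 for Cyp1a1 and 0.0927 for Cyp1b1. Cyp1a1 and Cyp1a2 lie head to head on chromosome 8, on opposite strands, with 13842 bases and 0 listed genes between them. Across the 12 libraries, log2 CPM of Cyp1a1 and Cyp1a2 had Pearson's r = 0.44 and Spearman's rho = 0.61. For Cyp1a1 and Cyp1b1 these were 0.68 and 0.62, and for Cyp1a2 and Cyp1b1 0.34 and 0.71. The points share 4 groups and the scaling of their library, and many Cyp1a1 and Cyp1b1 counts were low. Control+SAMC replicate 2 was the highest library for all 3 Cyp1 genes, while Ahr had rank 3 and Arnt rank 2 of 12 there. Ahr itself had r = 0.01 and rho = 0.12 with Cyp1a1, and r = 0.49 and rho = 0.40 with Cyp1a2.

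**Figure D3:**
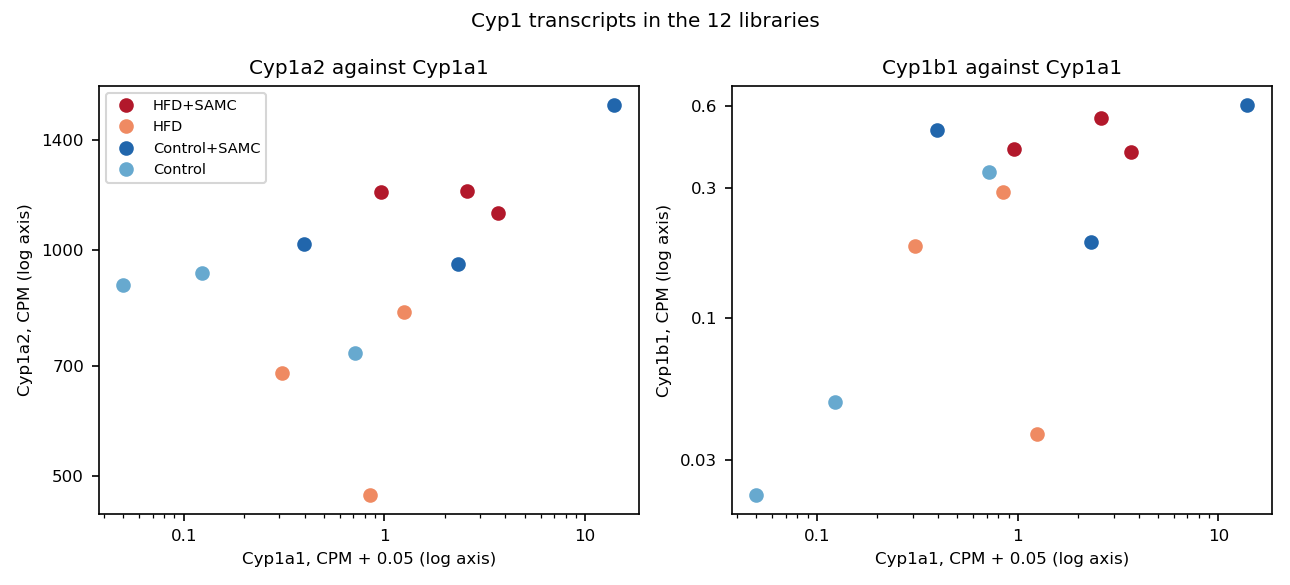
Cyp1a2 (left) and Cyp1b1 (right) against Cyp1a1 in the 12 libraries, all in TMM-scaled CPM on log axes, with 0.05 added to Cyp1a1 so that the library at 0 can be drawn. Each point is a library; the 6 SAMC libraries fill the upper part of the left panel, and the Control+SAMC library at 13.9 CPM of Cyp1a1 is also the highest for Cyp1a2 and Cyp1b1.

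Among 10168 genes whose mean log2 CPM reached 1, those whose log2 CPM across the 12 libraries was most like that of Cyp1a2 were Prdm2 (r = 0.90), Tango2 (r = 0.90) and Sult1a1 (r = 0.89), the last a phenol sulfotransferase. Among those most like Tiparp were Leng1 and Zdhhc14 (r = 0.91 for each). Most like Ahr were Pip4k2b (r = 0.95), Mblac2 (r = 0.94) and Fam13a (r = 0.91), and among those most like Arnt were Braf (r = 0.93) and Ccdc158 (r = 0.91). Nfkbib was most like Cyp1a1 (r = 0.94) and Trib1 most like Cyp1b1 (r = 0.91). These values are among the highest of all genes compared and describe the 12 libraries only.

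Other genes known as Ahr targets were followed as a battery of 10: Nqo1, Ugt1a6, Ugt1a7c, Aldh3a1, Gsta2, Nfe2l2, Ahrr, Serpinb2, Scin and Hes1. Of these, 7 could be tested, since Ahrr reached at most 8 counts in a library, Aldh3a1 2 and Serpinb2 1. In Control+SAMC against Control 1 of the 7 rose and 0 fell by edgeR, where 0.119% of all genes passed, and 4 rose and 0 fell by DESeq2, where 1.38% passed. The median log2 fold change was 1.22, against -0.01 over all genes, and 4 of the 7 lay above 0. At an unadjusted p under 0.05 by edgeR, 4 were higher and 1 was lower (9.78% of all genes in either direction). The lower one was Scin, at -1.13 ± 0.47 (edgeR adjusted p = 0.463). For SAMC averaged over diet 1 rose and 0 fell by edgeR (0.22% of all genes passed), 3 rose and 1 fell by DESeq2 (2.75%), and the median was 0.76. On the high fat diet, HFD+SAMC against HFD, 0 of the 7 passed by edgeR, and by DESeq2 1 rose and 1 fell (1.6% of all genes passed). There 3 had an unadjusted p under 0.05, of which 2 were higher and 1 lower (10.6% of all genes), and the median was 0.28. Of 9 battery genes with a promoter window, 7 held GCGTG, against 29.7% of all rat windows, and 3 held TNGCGTG, against 4.9%. Whether Ahr binds there was not tested.

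The gene that rose was Ugt1a6, which glucuronidates planar phenols. It was at 170, 79.8 and 78.3 CPM in Control+SAMC livers and at 12.9, 9.99 and 9.98 CPM in Control livers, and all Control+SAMC libraries lay far above the Control ones. Its log2 fold change was 3.32 ± 0.41 (edgeR adjusted p = 0.0186), and the call was lost with only these groups in the fit and without any 1 of the 3 Control libraries, at adjusted p-values of 0.0544 to 0.158. In HFD+SAMC livers it was at 42.1, 67.5 and 26.7 CPM, against 21.3, 12.6 and 18.5 CPM in HFD livers, a log2 fold change of 1.38 ± 0.38 (adjusted p = 0.269). SAMC averaged over diet gave 2.35 ± 0.28 (adjusted p = 0.00783), a call held under all 18 alternatives. Genes of the Ugt1a family share exons, so their counts are uncertain.

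Beside it, Ugt1a7c gave 1.80 ± 0.42 in Control+SAMC against Control (adjusted p = 0.191) and 1.39 ± 0.29 for SAMC averaged over diet (adjusted p = 0.0787). Nqo1, a quinone reductase, was at 123, 105 and 129 CPM in Control+SAMC livers against 60.8, 24.4 and 67.7 CPM in Control livers, which do not overlap. Its log2 fold change there was 1.22 ± 0.35 (adjusted p = 0.273), and 0.76 ± 0.24 for SAMC averaged over diet (adjusted p = 0.245). Hes1, a transcriptional repressor, pointed the other way in HFD+SAMC against HFD, at 8.77, 11.6 and 10.4 CPM against 21.8, 17.2 and 19.96 CPM, a log2 fold change of -0.94 ± 0.17 (adjusted p = 0.0815).

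**Figure D4:**
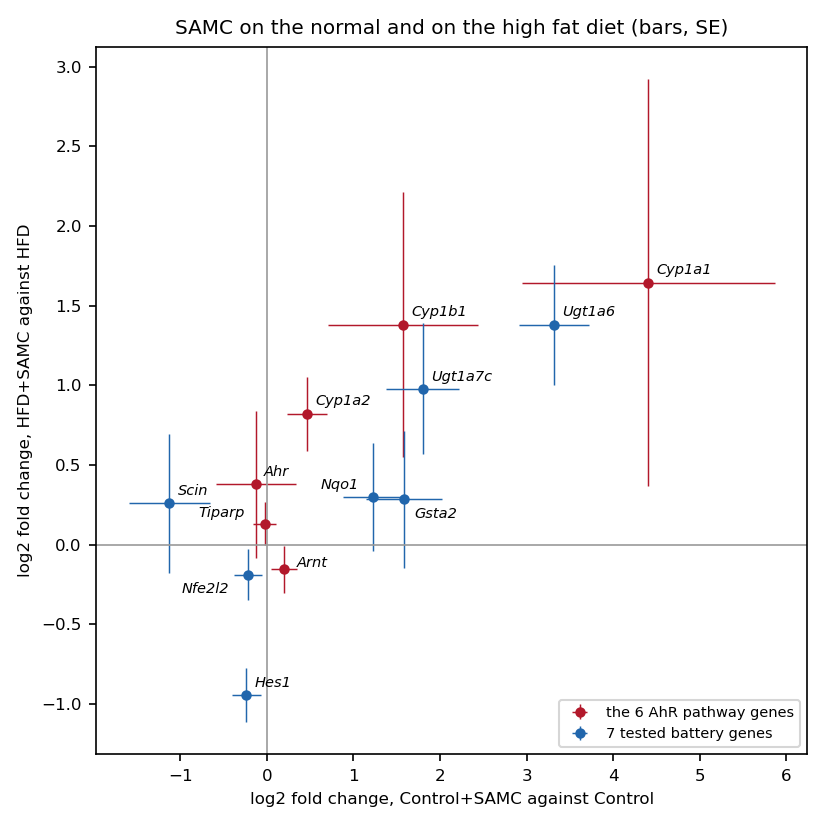
Log2 fold change in HFD+SAMC against HFD (y axis) over that in Control+SAMC against Control (x axis) for the 6 AhR pathway genes (red) and the 7 tested battery genes (blue), with SE bars. Ugt1a6, at 3.32 on the x axis, is the only one past the edgeR test there; the 3 Cyp1 genes lie right of 0 and above 0, and Ahr, Arnt and Tiparp lie near the origin.

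The chaperones, partners and co-regulators of the receptor were a list of 12, of which 11 were tested. In HFD against Control 1 rose and 0 fell by edgeR, where 0.145% of all genes passed, and likewise by DESeq2, where 2.07% passed. The median log2 fold change was 0.02. The one that rose was Hsp90aa1, the stress-inducible Hsp90, at 11.8, 13.4 and 13.2 CPM in HFD livers against 5.202, 3.70 and 2.85 CPM in Control livers. Its log2 fold change was 1.71 ± 0.25 (edgeR adjusted p = 0.0259), a call lost in 5 of 19 alternatives: with only the groups compared and on leaving out HFD replicate 2, HFD replicate 3, Control replicate 2 or Control replicate 3, with adjusted p-values of 0.0702 to 0.136. Hsp90aa1 has near-identical copies, so its count is uncertain. Its levels also followed the division in implied length described above. All HFD and Control+SAMC libraries held 7.02 CPM or more, and all HFD+SAMC and Control libraries 5.99 CPM or less. HFD against Control crosses that division, so diet and the division cannot be told apart in this call. Hsp90ab1, another Hsp90 of the list, was far more abundant, averaging 1713 CPM in HFD and 1358 CPM in Control livers. Its log2 fold change was 0.34 ± 0.19 (edgeR adjusted p = 0.557). For SAMC averaged over diet 0 of the 11 passed by edgeR or by DESeq2, and 0 had an unadjusted p under 0.05.

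Enzymes of tryptophan metabolism, among them makers of Ahr ligands, were a list of 11. Of these, 10 were tested, and Ido1 had 0 counts in every library. By edgeR and by DESeq2 0 of the 10 passed in any contrast, with 7 unadjusted p-values under 0.05 among 80 combinations of gene and contrast (8.75%, against 11% over all genes). For SAMC averaged over diet 8 lay above 0 with a median of 0.16 and 1 had an unadjusted p under 0.05. That was Ido2, at 0.75 ± 0.23 (adjusted p = 0.236). The electron donors that P450 enzymes need, Por, Cyb5a and Cyb5r3, passed in 0 contrasts by edgeR and by DESeq2, with 2 unadjusted p-values under 0.05 among 24 combinations (8.33%) and medians between -0.28 and 0.18.

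Other partners of Arnt, together with genes of the circadian clock, were a list of 21, of which 18 were tested. For SAMC averaged over diet 1 rose and 0 fell by edgeR, where 0.22% of all genes passed. By DESeq2 2 rose and 0 fell, where 2.75% passed. The median was 0.03. The gene that edgeR called was Bhlhe41, a clock repressor. It was at 3.50, 4.59 and 3.95 CPM in HFD+SAMC and 1.94, 2.35 and 1.44 CPM in HFD livers. On the normal diet it was at 4.31, 4.93 and 2.54 CPM in Control+SAMC and 0.762, 1.49 and 0.673 CPM in Control livers. Its log2 fold change was 1.54 ± 0.25 (adjusted p = 0.0272), a call lost in 11 of 18 alternatives, 10 of which left out 1 library (each but Control+SAMC replicate 3 and Control replicate 2), with adjusted p-values of up to 0.103. It was 2.04 ± 0.36 in HFD+SAMC against Control (adjusted p = 0.0495), lost in 13 of 19, at up to 0.216 (without Control replicate 3). Epas1, an Arnt partner of the list, gave 0.55 ± 0.14 for SAMC averaged over diet (adjusted p = 0.136).

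Processing moved some of these values more than others. Cyp1a2 in HFD+SAMC against HFD stayed between 0.63 and 1.12 over 19 alternatives, and for SAMC averaged over diet between 0.51 and 0.78 over 18. Tiparp in HFD against Control ranged from -0.49 to -0.12, the value nearest 0 coming from library totals alone.

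**Figure D5:**
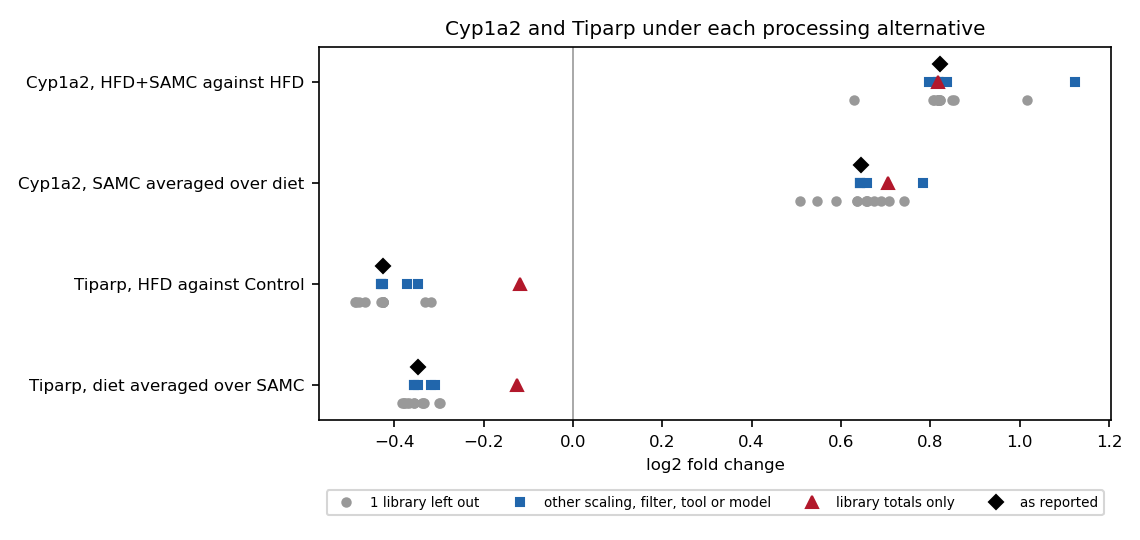
Log2 fold change (x axis) of Cyp1a2 and Tiparp in 2 contrasts each as reported (black) and under each processing alternative. Grey points leave out 1 library, blue squares use another scaling, filter, tool or model, and red triangles scale by library totals only; the Cyp1a2 values stay at 0.51 or above, and the Tiparp values move to -0.12 and -0.13 with library totals.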

How the data were processed

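Liver RNA was depleted of ribosomal RNA with a Ribo-Zero kit and made into libraries with a NEBNext Ultra kit, per the labels' protocols, and paired reads of 150 bp were sequenced. Reads were trimmed with Trimmomatic 0.36, and FastQC was run, per the submitters' processing notes. Alignment was by HISAT2, and the authors deposited a count of reads per gene from HTSeq, per the labels' protocols. Neither the genome build nor the strand setting is given in the sources used here. RPKM values, also deposited by the authors, equalled count over length and library total within 1e-06 for all but 1 gene.

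Groups came from the treatment labels. The 15916 genes that filterByExpr kept (minimum count 10) held 99.96% of counts and entered 1 edgeR 4.0.16 fit in R 4.3.3 (TMM, robust quasi-likelihood, 12 libraries, 8 residual degrees of freedom, common biological coefficient of variation 0.299). Tests were two-sided, adjusted by Benjamini-Hochberg within each of 8 contrasts, with a threshold of 0.05. Log2 fold changes are given ± SE, with 95% intervals. Log2 CPM used for correlations had a prior count of 2. Some genes with like patterns are not reported here. DESeq2 1.42.0 was an alternative, as were other scalings, no filter, a replicate block, only the groups compared and leaving out each library. The script was tested on simulated data. The 6 genes, the gene lists and the rule for named list genes (those past 0.05, or the 2 of smallest p in a contrast) were chosen with earlier results of these data known. Hsp90ab1 is given outside that rule, for its level beside Hsp90aa1. Libraries of a group differed by more than counting noise (chi-square over its degrees of freedom, 95.6 to 706), so none was taken for another deposited again; this does not show that they came from separate animals.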

Additional observations from a re-analysis of the deposited data

Results flagged for a closer look

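Hsp90aa1, the stress-inducible form among the Hsp90 chaperones, differed between diets in how it changed with SAMC. It was lower with SAMC on the high fat diet (5.71, 5.11 and 5.99 CPM in HFD+SAMC against 11.8, 13.4 and 13.2 CPM in HFD livers) and higher with SAMC on the normal diet (12.7, 7.02 and 8.85 CPM in Control+SAMC against 5.202, 3.70 and 2.85 CPM in Control livers). The test of that difference, the interaction, gave a log2 value of -2.47 ± 0.34 (edgeR adjusted p = 0.0166), a call lost in 6 of 18 alternatives that each left out 1 library. The interaction has the same pattern over groups as the length tables behind the RPKM values, so they cannot be told apart. The far more abundant Hsp90ab1 gave -0.07 ± 0.19 in HFD+SAMC against HFD (edgeR adjusted p = 0.927). In Control+SAMC against Control it gave 0.13 ± 0.19 (edgeR adjusted p = 0.895). Whether Hsp90 available to Ahr differed was not tested. For the 6 AhR pathway genes the adjusted p-values of the interaction were 0.754 to 0.989, with 0 at an unadjusted p under 0.05 (7.41% of all genes) and 0 called by DESeq2. This does not show that they lacked such a difference: the Cyp1a1 estimate was -2.76 ± 1.86. Groups of 3 libraries are too small for a test of single outlying libraries.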

How the results depend on the processing

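Of 894 alternative values for the 48 combinations of gene and contrast, 839 kept their direction and side of the threshold, 3 passed it (all by DESeq2) and 52 changed sign, 39 of them with 1 library left out. None of the 19 combinations with a change of sign had an unadjusted p under 0.05; for these the cause was not tested. With library totals only, an alternative chosen after seeing the data, Ahr gave 0.063 in Control+SAMC against Control, 0.048 in HFD+SAMC against Control+SAMC and 0.11 in HFD+SAMC against Control. Tiparp gave 0.12 in Control+SAMC against Control and -0.014 for the interaction, and Cyp1a2 gave 0.15 in HFD+SAMC against Control+SAMC and 0.033 for the diet averaged over SAMC. Arnt gave 0.27 in HFD+SAMC against Control (0.0079 with upper quartile scaling) and 0.19 for the diet averaged over SAMC. This scaling moved the median of all genes by up to 0.29, other scalings by at most 0.05.

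The labels do not say that replicate numbers pair the libraries. Deviations of same-numbered libraries correlated from -0.22 to 0.25. Differently numbered libraries were not compared in this way, so these values do not settle whether numbers mark a pairing. With a replicate block, Cyp1a2 gave 0.031 in HFD+SAMC against Control+SAMC, and Arnt gave 0.023 for the diet and -0.031 for SAMC, each averaged over the other. The block moved the count of all genes past 0.05 to 6 in Control+SAMC against Control, 2 in HFD+SAMC against Control+SAMC, 10 for SAMC averaged over diet and 9 for the interaction.

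With 1 library left out, log2 fold changes that changed sign ranged as follows. In HFD against Control, Ahr ranged from -0.98 to 0.0042 and Cyp1b1 from -0.35 to 2.22. In Control+SAMC against Control, Ahr ranged from -0.50 to 0.48 and Tiparp from -0.086 to 0.083. In HFD+SAMC against Control+SAMC, Ahr ranged from -0.39 to 0.079, Cyp1a1 from -1.78 to 0.83, Cyp1a2 from -0.14 to 0.24 and Cyp1b1 from -0.26 to 0.42. In HFD+SAMC against Control, Ahr ranged from -0.61 to 0.38 and Arnt from -0.11 to 0.075. For the diet averaged over SAMC, Arnt ranged from -0.097 to 0.030, Cyp1a1 from -0.14 to 1.54 and Cyp1b1 from -0.13 to 1.15. For SAMC averaged over diet, Ahr ranged from -0.067 to 0.43 and Arnt from -0.046 to 0.081. For the interaction, Ahr ranged from -0.11 to 0.88 and Cyp1b1 from -2.14 to 0.44.

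Counts of all genes past 0.05 were 23 in HFD against Control, 8 in HFD+SAMC against HFD, 19 in Control+SAMC against Control, 10 in HFD+SAMC against Control+SAMC, 28 in HFD+SAMC against Control, 67 for the diet and 35 for SAMC, each averaged over the other, and 23 for the interaction. In that order, leaving out 1 library gave 4 to 52, 1 to 27, 3 to 23, 1 to 43, 6 to 50, 32 to 128, 13 to 70 and 7 to 19. DESeq2 gave 315, 249, 219, 272, 455, 538, 436 and 128, and 3 of the 48 combinations of the 6 genes against 0. With only the groups compared, the counts were 4 in HFD against Control, 23 in HFD+SAMC against HFD, 5 in Control+SAMC against Control and 43 in HFD+SAMC against Control+SAMC. With no filter they were 19 in HFD+SAMC against HFD, 21 in HFD+SAMC against Control+SAMC, 61 in HFD+SAMC against Control and 67 for SAMC averaged over diet. With library totals only they were 136 in HFD against Control, 5 in HFD+SAMC against Control+SAMC, 185 in HFD+SAMC against Control and 573 for the diet averaged over SAMC.

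Counts of Cyp1a1 and Cyp1b1 were few, 1390 and 201 over all libraries, against 621253 for Cyp1a2, and they also differed widely between libraries of a group. The part of either in the width of their intervals was not tested.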
